A study of Mus musculus with 9 samples.

Results

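The genes described here encode the proteasome, the large protease that degrades ubiquitin-tagged proteins, with its activators and assembly factors. They were chosen by symbol, as every mouse gene whose name begins with Psma, Psmb, Psmc, Psmd, Psme, Psmf or Psmg followed by a digit, pseudogenes left out. The rule matched 50 genes among the 19505 genes with a symbol on the array, each read by 1 probe set. Of these, 48 are subunits, activators, an inhibitor or assembly factors. The other two, Psmc3ip and Psme3ip1, encode binding partners and were matched by symbol alone. Psmb5, the constitutive chymotrypsin-like subunit, is not analysed here.

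RNA came from the peri-infarct region, the tissue around the infarct core, of female SCID mice of 80 to 100 days of age, a strain without functional T and B lymphocytes. All the mice had an acute infarct made by ligating the left anterior descending coronary artery (LAD), and tissue was taken 4 weeks later. The iCM-Ex group was injected with exosomes precipitated from cardiomyocytes that had been differentiated from induced pluripotent stem cells (iPSC). The iCM group was injected with such cardiomyocytes themselves, and the saline group with saline. The labels give 3 biological replicates in each group, 1 array each, 9 arrays overall. Neither the stem cells' species nor the site and time of injection is stated in the labels. The labels do not say outright that each replicate is a separate mouse, so p-values measure the spread between these arrays.

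A 20S core of stacked rings forms the barrel of the proteasome. The outer alpha rings gate its entry and the inner beta rings carry the active sites. A 19S regulatory particle docks on the core: its base holds a ring of ATPases that unfold substrates, and its lid removes the ubiquitin chain. Interferon signalling exchanges the catalytic beta subunits for Psmb8, Psmb9 and Psmb10, which makes the immunoproteasome that trims peptides for class I antigen presentation, and induces the 11S activator subunits Psme1 and Psme2. In heart muscle the proteasome clears damaged and misfolded contractile proteins, and its activity is known to fall after ischaemia.

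RefSeq promoter windows (GRCm38.p6, 250 bases before to 50 after each gene's start) were found for 42 of the 50 genes. They were searched on both strands for 3 motif cores: TGACNNNGC of the antioxidant response element, bound by Nfe2l1 and Nfe2l2, the core of the interferon-stimulated response element, and TTCNNNGAA of the STAT site. The antioxidant core occurred in 5 of the 42 genes (11.9%), against 14% of all 27025 genes in the table. The interferon core occurred in 5 (11.9%), against 3.99% of all genes, and the STAT core in 3 (7.14%), against 9.55%. The 5 with the interferon core were Psmb3, Psmd4, Psmd9, Psme1 and Psmg4, none of them an immunoproteasome gene. The windows of 4 genes are given from the first of the 250 upstream bases to the last, with a matched core in capitals. Psmb3 is shown as the member with the largest difference of iCM-Ex over saline, Psmb6 and Psmb9 as the constitutive and interferon-induced forms of the same catalytic position, and Psmb8 as the immunoproteasome gene with the largest difference. A match describes the letters of the window and not a bound site, and no core was found in the window of Psmb9.
Psmb3, chr11:97703184-97703433, plus strand: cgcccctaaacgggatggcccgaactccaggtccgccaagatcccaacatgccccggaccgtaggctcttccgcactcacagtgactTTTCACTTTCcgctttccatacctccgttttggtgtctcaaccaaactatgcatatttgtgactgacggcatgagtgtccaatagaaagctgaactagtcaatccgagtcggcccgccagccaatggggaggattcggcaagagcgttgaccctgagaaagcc
Psmb6, chr11:70525107-70525356, plus strand: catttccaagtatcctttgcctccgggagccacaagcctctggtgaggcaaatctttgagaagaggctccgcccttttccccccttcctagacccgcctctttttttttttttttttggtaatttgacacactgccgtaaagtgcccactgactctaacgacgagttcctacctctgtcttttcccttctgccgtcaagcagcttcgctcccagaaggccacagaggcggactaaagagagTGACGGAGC
Psmb8, chr17:34197945-34198194, plus strand: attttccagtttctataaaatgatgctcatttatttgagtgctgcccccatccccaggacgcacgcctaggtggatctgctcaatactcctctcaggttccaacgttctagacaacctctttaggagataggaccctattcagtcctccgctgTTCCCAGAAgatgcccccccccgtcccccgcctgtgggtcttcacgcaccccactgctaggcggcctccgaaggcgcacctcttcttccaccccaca
Psmb9, chr17:34187331-34187580, minus strand: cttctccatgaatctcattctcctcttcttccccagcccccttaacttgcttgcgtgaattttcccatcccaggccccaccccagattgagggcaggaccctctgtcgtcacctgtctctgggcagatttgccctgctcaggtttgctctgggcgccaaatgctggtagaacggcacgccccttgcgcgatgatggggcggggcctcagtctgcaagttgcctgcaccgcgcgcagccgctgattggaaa
The Psmb3 match is an interferon core on the opposite strand, at positions −163 to −154 counted from the start. The Psmb6 match is an antioxidant core at −9 to −1, and the Psmb8 match a STAT core at −97 to −89, both on the gene's strand.

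The values are the authors' log2 signals, so a difference of 1 is a doubling, and differences between probe sets are not read as differences in expression. Control separation, the gap between the median signals of positive and of negative control probe sets, is an index of how well an array worked. It was 3.63, 4.01 and 3.67 for iCM-Ex hearts, 3.21, 2.47 and 3.15 for iCM hearts and 3.26, 3.48 and 3.56 for saline hearts, and thus higher on every iCM-Ex array than on any other array, and lower on every iCM array than on any saline array. Because control separation did not overlap between the groups, a fit with it as a covariate cannot tell array quality apart from group. Marker genes also differed between arrays. The mean signal of 10 cardiomyocyte markers was between 15.62 and 17.70 on the 9 arrays, so heart muscle RNA was present on each. The mean of 11 alveolar lung markers was 8.57 on iCM-Ex replicate 3 and 11.44 on iCM replicate 1, and the mean of 10 fast skeletal muscle markers was 12.56 on iCM replicate 2, whose 7 fat markers averaged 8.77. On the other arrays these lists averaged at most 5.81, 5.82 and 5.61. Leucocyte and macrophage markers (10 genes) averaged 11.03, 11.98 and 11.64 in iCM-Ex hearts, 9.95, 9.64 and 8.33 in iCM hearts and 8.43, 10.04 and 11.84 in saline hearts, so that iCM-Ex lay above iCM without overlap.

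The median difference between groups varied with the part of the proteasome a gene builds. Of all 50 genes, 34 were higher on average in iCM-Ex than in saline hearts, with a median log2 difference of 0.31, and 22 were higher in iCM than in saline hearts, with a median of −0.10. For all genes the shares higher were 53.5% and 55.5% and the medians 0.04 and 0.08. Between the treated groups, 36 of 50 were higher in iCM-Ex than in iCM hearts, with a median of 0.38, against 46.1% and −0.04 for all genes. Genes above the median mean signal, as 47 of the 50 members are, had shares of 50%, 45.9% and 54.2% higher in these 3 contrasts. The medians of these brighter genes were 0.0003, −0.09 and 0.08. The members' median for iCM over saline changed sign with quantile normalisation (0.05) and with control separation as a covariate (0.17). It also did so without iCM replicate 2 (0.09) and without the 3 arrays with markers of other tissues described above (0.14). The members of a complex share their arrays and are not replicates, so these medians carry no test.

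Few single genes passed limma's test over all genes (Benjamini-Hochberg adjusted p under 0.05 within a contrast). For iCM-Ex against saline, 0 members rose and 1, Psmd7, fell, where 0.349% of all genes were called (0.22% higher and 0.128% lower). In that contrast 14 of the 50 members had an unadjusted p under 0.05 in limma. So had 2971 of all 19505 genes, and 2274 of the 9752 genes above the median mean signal. For iCM against saline, 3 members rose (Psmb1, Psmc3 and Psmc5) and 3 fell (Psmb2, Psmd1 and Psmd7), where 3.67% of all genes were called (1.34% higher and 2.33% lower). For iCM-Ex against iCM, 2 members rose (Psma4 and Psmb2) and 0 fell, where 1.07% of all genes were called (0.795% higher and 0.272% lower). A moderated F test for any difference among the groups called 6 members, Psma4, Psmb1, Psmb2, Psmb3, Psmc3 and Psmd7, where 3.32% of all genes were called. Of the 50 members, 47 had a mean signal above that of the median gene, and among all genes above that median 0.646%, 6.57% and 2.07% were called in the 3 contrasts in the same order. Without iCM replicate 1, iCM replicate 2 and iCM-Ex replicate 3, which carried lung, muscle or fat marker signal, 1 iCM array is left. Its spread is taken from the other groups, so a call lost in that fit is not read as a result about the members. With control separation as a covariate no member was called in a contrast. Of all 19505 genes, 5, 33 and 0 were called with it in the same order. For iCM against saline, the count was 3 without iCM replicate 2 (Psmb2, Psmc3 and Psmd7), beside 1% of all genes. Without saline replicate 2 it was 1 (Psmd7), beside 0.646% of all genes. For the 2 other contrasts, leaving out 1 array gave counts of 0 to 2 and of 0 to 3.

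**Figure D1:**
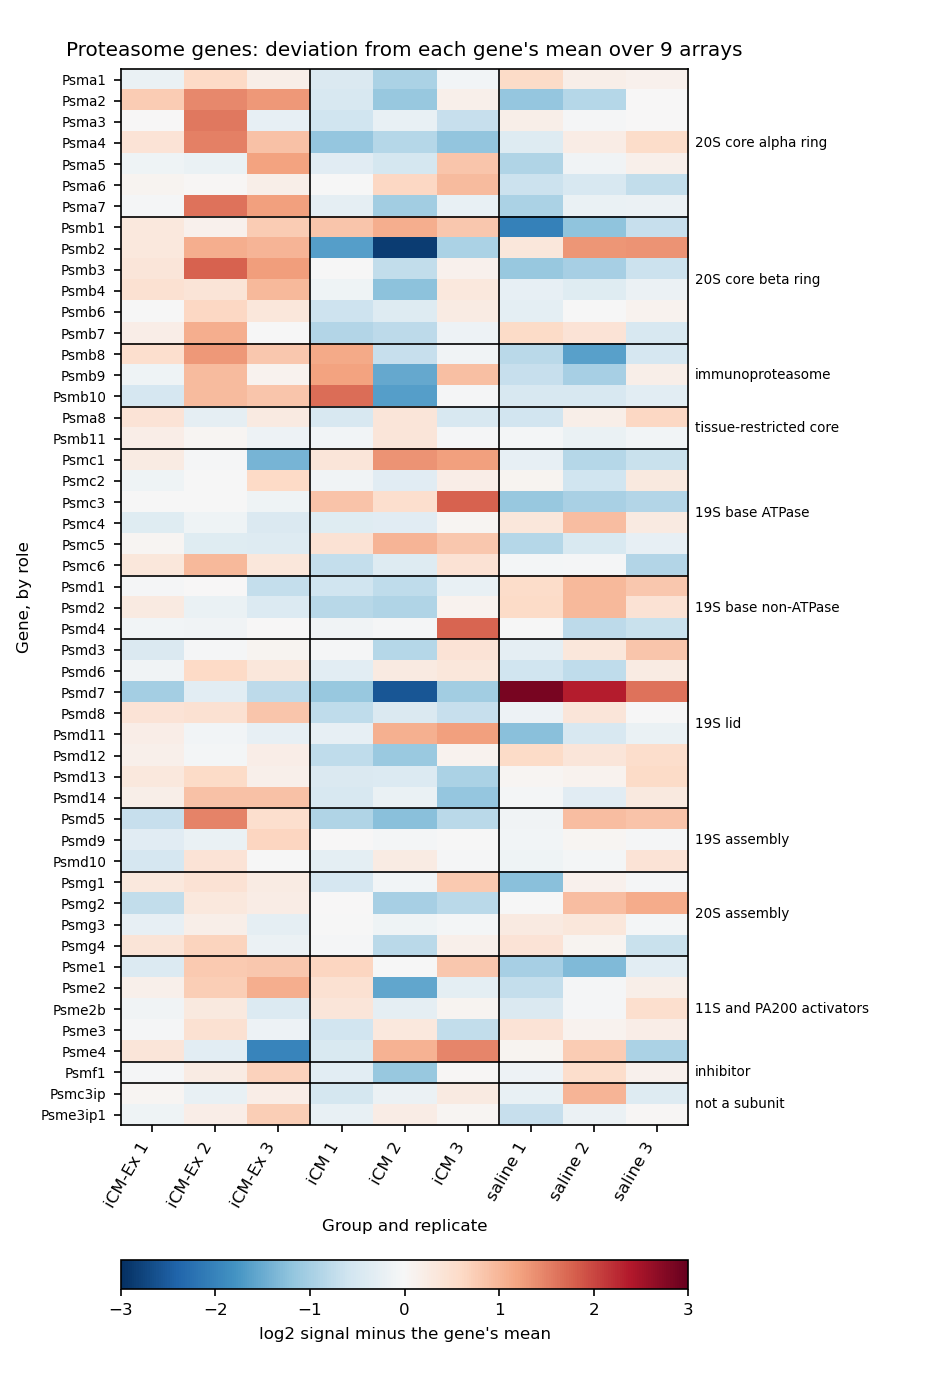
Deviation of the log2 signal of each of the 50 genes from its own mean over the 9 arrays, with genes down the page by role and arrays across by group and replicate. Red is above and blue below the gene's mean. Psmd7 is red on the 3 saline arrays, Psmb2 is blue on the 3 iCM arrays, and most 20S core genes are red on the iCM-Ex arrays.

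Most 20S core genes had higher signals in iCM-Ex hearts. Of its 13 constitutive genes measured, 11 were higher on average in iCM-Ex than in saline hearts, with a median difference of 0.72, and 6 of the 13 were higher on every iCM-Ex array than on any saline array, where 12.2% of all genes were. None of the 13 passed the adjusted threshold in that contrast. In limma 7 of the 13 had an unadjusted p under 0.05, as had 2274 of the 9752 genes above the median mean signal. Against iCM hearts, 11 of 13 were higher, with a median of 0.96, and 7 did not overlap in that direction, where 10.2% of all genes did. Psma4 and Psmb2 passed the threshold. In iCM against saline hearts 5 of 13 were above saline (median −0.09). That direction turned to 8 of 13 above saline with quantile normalisation (median 0.19), with control separation as a covariate (0.49) and without the 3 arrays with markers of other tissues (0.31), and to 7 of 13 without iCM replicate 2 (0.20). For the 50 members together, 11 were higher and 5 lower without overlap in iCM-Ex against saline hearts, beside 12.2% and 9.53% of all genes. In iCM against saline hearts 6 were higher without overlap and 12 lower, beside 13.8% and 10.2% of all genes, and between iCM-Ex and iCM 12 were higher and 4 lower, beside 10.2% and 10%. Among the 9752 genes above the median mean signal, 1235 were higher and 1366 lower without overlap in iCM-Ex against saline hearts. Those counts were 1205 and 1629 for iCM against saline and 1612 and 1094 for iCM-Ex against iCM. Both rings had positive medians: those of iCM-Ex over saline were 0.72 for the 7 alpha genes and 0.62 for the 6 beta genes.

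Averaged over the 13 genes, the core's log2 signal was 12.07, 12.77 and 12.57 in iCM-Ex hearts, 11.43, 11.18 and 11.88 in iCM hearts and 11.41, 11.71 and 11.83 in saline hearts. The mean of the 17 genes of the 19S particle was 11.12, 11.25 and 11.06 in iCM-Ex hearts, 10.81, 10.88 and 11.38 in iCM hearts and 11.15, 11.19 and 11.26 in saline hearts. The core mean was higher on every iCM-Ex array than on any other array, whereas the 19S means of iCM-Ex lay within the range of the iCM arrays. Within an array, core minus 19S was 0.94, 1.52 and 1.51 in iCM-Ex hearts, 0.62, 0.31 and 0.51 in iCM hearts and 0.26, 0.52 and 0.57 in saline hearts. With Psmd7 left out of the 19S mean it was 0.995, 1.61 and 1.58 in iCM-Ex hearts, 0.68, 0.28 and 0.54 in iCM hearts and 0.55, 0.78 and 0.78 in saline hearts. The 3 iCM-Ex arrays stood above the 6 others in both forms. These values compare genes chosen with earlier results known and carry no p.

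The arrays with the higher core signals were also those with the higher control separation, and they had more leucocyte marker signal than the iCM arrays. Fibroblast markers were higher on average in iCM-Ex than in iCM hearts for 8 of 8 genes (median 1.86). They were higher in iCM-Ex than in saline hearts for 7 of 8 (median 0.31). In iCM hearts 8 of 8 were lower than in saline hearts (median −1.30). Endothelial markers were lower in iCM-Ex than in saline hearts for 6 of 7 genes (median −0.61). Cardiomyocyte markers were lower than in saline hearts for 7 of 10 genes in iCM-Ex hearts (median −0.47). In iCM hearts they were lower for 9 of 10 (median −0.28). With control separation as a covariate, the core median was 0.48 for iCM-Ex over saline (11 of 13 higher) and 0.12 for iCM-Ex over iCM (8 of 13 higher). This covariate follows the groups, so array quality and group cannot be told apart in these values. The part of leucocyte, fibroblast, endothelial or cardiomyocyte RNA in the core signal was not tested. In whole tissue, fewer cells of a type and less RNA per cell cannot be told apart.

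**Figure D2:**
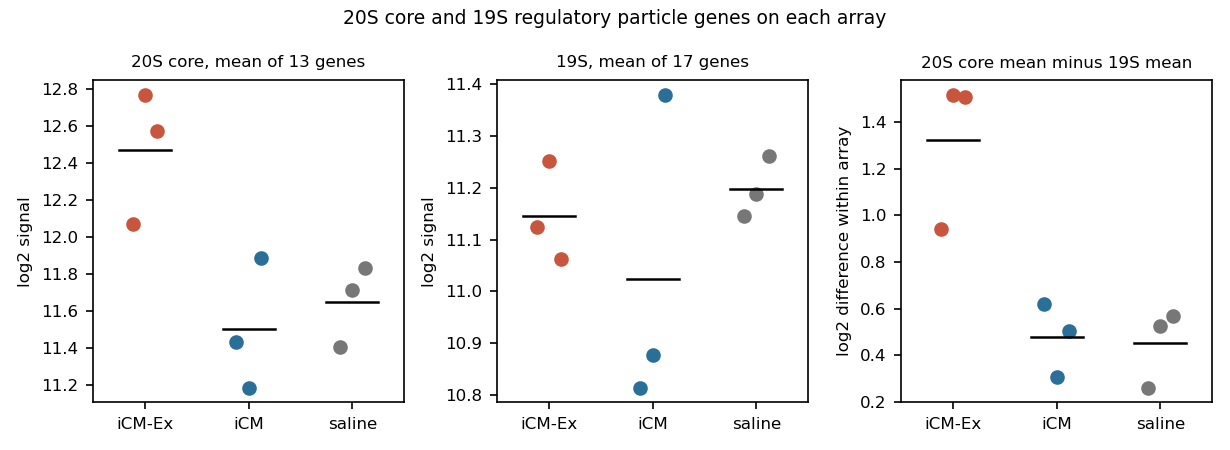
Mean log2 signal of the 13 constitutive 20S core genes (left), of the 17 genes of the 19S particle (middle), and the difference of these means within each array (right). Points are arrays and bars are group means. The differences on the iCM-Ex arrays run from 0.94 to 1.52 and those on the other arrays from 0.26 to 0.62.

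Psma4 encodes an alpha ring subunit, and its signals were 13.50, 14.61 and 13.98 in iCM-Ex hearts, 11.92, 12.24 and 11.90 in iCM hearts and 12.71, 13.31 and 13.65 in saline hearts. Every iCM-Ex array lay above every iCM array, and every iCM array below every saline array. Psma4 was 2.01 ± 0.36 (SE) higher in iCM-Ex than in iCM hearts on the log2 scale, 4.02-fold (limma adjusted p = 0.0386). The difference of iCM-Ex from saline was 0.81 (adjusted p = 0.318). The call against iCM was lost without any 1 of iCM-Ex replicates 2 and 3, the 3 iCM arrays and saline replicate 2 (limma adjusted p from 0.0507 to 0.19), and was kept without each of the 3 other arrays.

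Psma2, another alpha subunit, had signals of 11.81, 12.48 and 12.34 in iCM-Ex hearts, 10.56, 9.91 and 11.19 in iCM hearts and 9.89, 10.18 and 11.07 in saline hearts. The iCM-Ex arrays lay above all others, while iCM and saline overlapped. The differences were 1.83 ± 0.41 from saline and 1.65 from iCM (SE, limma adjusted p = 0.0908 and 0.0896). The difference from iCM was 0.42 with control separation as a covariate and 0.95 without the 3 arrays with markers of other tissues. Psma7 had the same order of values, with 11.39, 13.03 and 12.66 in iCM-Ex hearts, 11.16, 10.38 and 11.20 in iCM hearts and 10.47, 11.22 and 11.23 in saline hearts. Its differences of 1.38 from saline and 1.45 from iCM had limma adjusted p of 0.189 and 0.157. Psma6 departed from this pattern: it was above saline on every array in iCM-Ex hearts (0.72, adjusted p = 0.274) and in iCM hearts (1.14, adjusted p = 0.0591). Psma1, Psma3 and Psma5 overlapped between iCM-Ex and saline hearts, with differences of −0.10, 0.40 and 0.57.

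Psmb3, a structural beta subunit, had the largest difference of iCM-Ex over saline among the members. Its signals were 10.32, 11.72 and 11.21 in iCM-Ex hearts, 9.94, 9.23 and 10.09 in iCM hearts and 8.83, 8.98 and 9.33 in saline hearts. The iCM-Ex arrays lay above all others. The difference from saline was 2.04 ± 0.39 (SE), 4.11-fold, with an adjusted p of 0.0675 in limma. The F test over the 3 groups gave an adjusted p of 0.0437. That call was kept without iCM-Ex replicate 1 and lost without any other single array. It was also lost with control separation as a covariate, a replicate block or an intensity trend. Quantile normalisation, median centring and array weights kept it.

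Psmb1, also structural, was a core gene with higher signals in both treated groups. Its signals were 13.30, 13.10 and 13.74 in iCM-Ex hearts, 13.80, 14.06 and 13.78 in iCM hearts and 10.94, 11.78 and 12.27 in saline hearts. All 6 treated arrays lay above all 3 saline arrays. In iCM hearts it rose by 2.22 ± 0.36 (SE), 4.66-fold (limma adjusted p = 0.0133). In iCM-Ex hearts the difference was 1.72 ± 0.36, 3.29-fold (limma adjusted p = 0.0796). The iCM call was lost without iCM replicate 2 (adjusted p = 0.0523) and without saline replicate 2 (adjusted p = 0.0586), and kept without each of the 7 other arrays.

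Psmb2, the structural subunit at another place in the ring, moved the other way in iCM hearts. Its signals were 11.54, 12.31 and 12.23 in iCM-Ex hearts, 9.58, 8.38 and 10.28 in iCM hearts and 11.56, 12.54 and 12.56 in saline hearts. The iCM arrays lay below all others, and iCM-Ex and saline overlapped (difference −0.19, adjusted p = 0.891). Psmb2 fell by 2.81 ± 0.49 (SE) in iCM against saline hearts, 7.02-fold (limma adjusted p = 0.0168), and was 2.62 ± 0.49 higher in iCM-Ex than in iCM hearts, 6.14-fold (limma adjusted p = 0.0392). The fall was lost without saline replicate 2 (adjusted p = 0.0781), with control separation as a covariate (difference −1.76, adjusted p = 0.185) and without the 3 arrays with markers of other tissues (−1.94, adjusted p = 0.225). The iCM-Ex over iCM call was lost without iCM-Ex replicate 2 or 3, iCM replicate 1 or 2, or saline replicate 2 (limma adjusted p from 0.0507 to 0.205). With control separation as a covariate the difference of iCM-Ex over iCM was 0.87 (adjusted p = 0.864), and without those 3 arrays it was 1.65 (adjusted p = 0.454). Psmb1 and Psmb2 thus differed from saline in opposite directions in the same 3 iCM hearts.

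Psmb4 was above both other groups on every iCM-Ex array, by 0.87 over saline and 0.95 over iCM (adjusted p = 0.325 and 0.285). Psmb6, the caspase-like subunit, had signals of 11.54, 12.19 and 11.89 in iCM-Ex hearts, 10.95, 11.19 and 11.82 in iCM hearts and 11.28, 11.55 and 11.68 in saline hearts. Psmb7, the trypsin-like subunit, had 14.30, 15.20 and 14.11 in iCM-Ex hearts, 13.24, 13.33 and 13.96 in iCM hearts and 14.69, 14.52 and 13.64 in saline hearts. Psmb6 and Psmb7 overlapped between iCM-Ex and saline, with differences of 0.37 (adjusted p = 0.628) and 0.25 (adjusted p = 0.819).

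**Figure D3:**
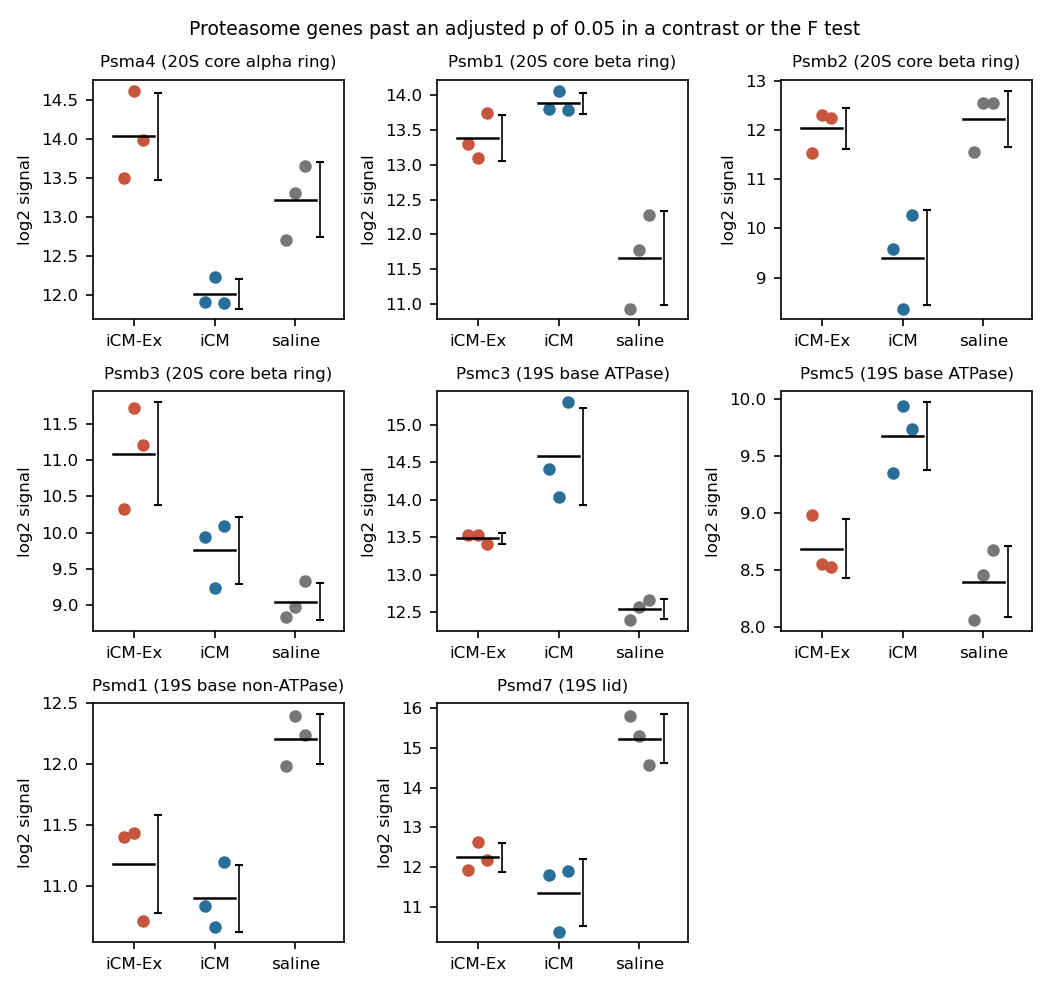
Log2 signal on each array of the 8 members called in a contrast or by the F test, in iCM-Ex, iCM and saline hearts from left to right. Points are arrays, horizontal bars are group means and the brackets beside them span 1 SD to either side (n = 3). Psmd7 is at 14.57 or above on the saline arrays and at 12.64 or below on all others, and Psmb2 is lowest on the iCM arrays.

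None of the immunoproteasome genes passed the test. The iCM-Ex over saline differences of Psmb9 and Psmb10 changed direction in 1 of 19 alternative settings, the control separation covariate. That of Psmb8 did so in 0. All 3 were higher on average in iCM-Ex than in saline hearts, with a median difference of 0.85, and all 3 in iCM than in saline hearts, with a median of 0.70. With control separation as a covariate, 1 of 3 was higher in iCM-Ex than in saline hearts (median −0.18) and 3 of 3 in iCM than in saline hearts (median 1.96). Without iCM replicate 2 the median for iCM over saline was 1.51. Psmb8, the interferon-induced chymotrypsin-like subunit, had signals of 9.34, 10.15 and 9.66 in iCM-Ex hearts, 9.99, 8.16 and 8.73 in iCM hearts and 8.02, 7.21 and 8.33 in saline hearts. Its iCM-Ex arrays lay above its saline arrays, by 1.86 ± 0.48 (SE) or 3.63-fold (limma adjusted p = 0.116), and iCM overlapped with both groups. Psmb9, which replaces Psmb6, had 7.0, 8.06 and 7.23 in iCM-Ex hearts, 8.34, 5.60 and 8.02 in iCM hearts and 6.43, 6.13 and 7.30 in saline hearts. Psmb10, which replaces Psmb7, had 8.90, 10.35 and 10.22 in iCM-Ex hearts, 11.08, 7.74 and 9.36 in iCM hearts and 8.91, 8.91 and 9.09 in saline hearts.

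The iCM arrays differed among themselves more than the groups did for Psmb9 and Psmb10. Their SDs over the 3 iCM arrays were 1.5 and 1.67, against 0.56 and 0.81 in iCM-Ex hearts and 0.61 and 0.10 in saline hearts. Replicate 1, the array with lung markers, was the highest iCM array for all 3 genes. Replicate 2, the array with skeletal muscle and fat markers, was the lowest. Psmb9 on iCM replicate 2, at 5.60, was close to the median negative control of that array, at 5.56. The differences of Psmb9 and Psmb10 were 0.81 and 0.85 for iCM-Ex over saline (limma adjusted p = 0.615 and 0.623) and 0.70 and 0.43 for iCM over saline (limma adjusted p = 0.591 and 0.783). Without iCM replicate 1 the Psmb10 difference of iCM from saline was −0.42. Leucocyte markers were higher on average in iCM-Ex than in saline hearts for 10 of 10 genes, though saline replicate 3, at 11.84, lay within the iCM-Ex range, and their part in the Psmb8 difference was not tested.

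**Figure D4:**
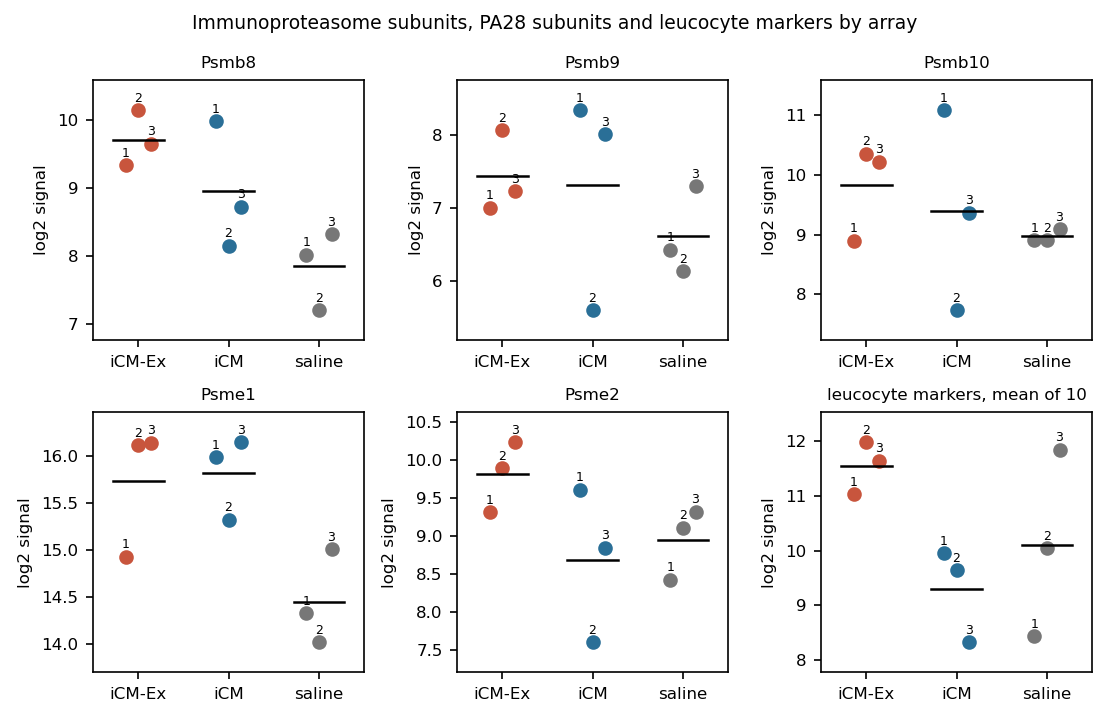
Log2 signal on each array of the immunoproteasome genes Psmb8, Psmb9 and Psmb10 and of the 11S (PA28) activator genes Psme1 and Psme2, with the mean of 10 leucocyte and macrophage markers, in iCM-Ex, iCM and saline hearts; points are arrays numbered by replicate and bars are group means. Psmb8 is at 9.34 or above on the iCM-Ex arrays and at 8.33 or below on the saline arrays, and the 3 iCM arrays of Psmb10 run from 7.74 to 11.08.

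None of the 5 activator genes was called, and their differences had both signs. There were 2 higher in iCM-Ex than in saline hearts (median −0.08) and 3 in iCM than in saline hearts (median 0.05). Psme1 had signals of 14.93, 16.12 and 16.14 in iCM-Ex hearts, 15.98, 15.32 and 16.14 in iCM hearts and 14.32, 14.01 and 15.003 in saline hearts. Every iCM array lay above every saline array, by 1.37 on average (limma adjusted p = 0.0973), and iCM-Ex overlapped with saline at 14.93 against 15.003, with a difference of 1.28 (limma adjusted p = 0.189). Psme2, which joins Psme1 in the same ring, had 9.31, 9.89 and 10.23 in iCM-Ex hearts, 9.61, 7.60 and 8.85 in iCM hearts and 8.43, 9.11 and 9.32 in saline hearts. Its groups overlapped, with differences of 0.86 for iCM-Ex and −0.27 for iCM (adjusted p = 0.448 and 0.808). Psme2b is a near copy of Psme2, and whether each probe set also reads the other gene was not tested. Psme4, the PA200 activator, had 13.14, 12.45 and 10.80 in iCM-Ex hearts, 12.31, 13.81 and 14.22 in iCM hearts and 12.85, 13.52 and 11.81 in saline hearts, with 1.03 as its SD within groups. Psme3, the nuclear 11S activator, differed from saline by −0.15 in iCM-Ex and −0.56 in iCM hearts. Psmf1, which binds the core and can inhibit it, differed by 0.13 in iCM-Ex and −0.64 in iCM hearts (adjusted p = 0.899 and 0.351).

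Within the 19S particle the base ATPases and the lid differed in direction in iCM hearts. Of the 6 ATPase genes, 4 were higher in iCM than in saline hearts, with a median of 0.69, and Psmc3 and Psmc5 rose. Of the 8 lid genes, 6 were lower, with a median of −0.64, and Psmd7 fell. Of the 3 other base genes, 2 were lower, and Psmd1 fell. In iCM-Ex against saline hearts the medians were 0.26 for the ATPases and 0.30 for the lid. Between the treated groups, 4 of 6 ATPase genes were lower in iCM-Ex than in iCM hearts (median −0.54) and 7 of 8 lid genes were higher (median 0.78). The difference in direction between ATPases and lid was not tested. Over all 17 genes, the median for iCM over saline was −0.46, and it was 0.13 without those 3 arrays with markers of other tissues and 0.12 with control separation as a covariate. It was −0.11 without iCM replicate 2 and −0.19 without saline replicate 3.

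Psmc3, an ATPase of the base, had signals of 13.53, 13.53 and 13.40 in iCM-Ex hearts, 14.40, 14.04 and 15.30 in iCM hearts and 12.39, 12.57 and 12.66 in saline hearts. The groups did not overlap, with iCM highest and saline lowest. Psmc3 rose by 2.04 ± 0.33 (SE) in iCM against saline hearts, 4.10-fold (limma adjusted p = 0.0133), and the difference of iCM-Ex from saline was 0.95 (adjusted p = 0.216). The call was lost without saline replicate 2 (adjusted p = 0.0605).

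Psmc5, another ATPase, had 8.98, 8.55 and 8.53 in iCM-Ex hearts, 9.35, 9.94 and 9.73 in iCM hearts and 8.06, 8.46 and 8.67 in saline hearts. The iCM arrays lay above all others, and iCM-Ex and saline overlapped. It rose by 1.28 ± 0.29 (SE) in iCM against saline hearts, 2.43-fold (limma adjusted p = 0.0413). That call was kept without iCM-Ex replicate 1 or iCM replicate 1 and was lost without each of the 7 other arrays (limma adjusted p from 0.0614 to 0.13). Psmc1 had 10.37, 10.10 and 8.73 in iCM-Ex hearts, 10.48, 11.47 and 11.36 in iCM hearts and 9.87, 9.27 and 9.45 in saline hearts. Its iCM arrays also lay above all others, by 1.57 over saline (adjusted p = 0.0824), and its difference of −1.37 was the lowest of iCM-Ex minus iCM among the members (adjusted p = 0.182). Psmc4 lay below saline on every treated array: it had 10.55, 10.79 and 10.48 in iCM-Ex hearts, 10.55, 10.56 and 10.97 in iCM hearts and 11.26, 11.83 and 11.18 in saline hearts. Its differences were −0.82 in iCM-Ex and −0.73 in iCM hearts (limma adjusted p = 0.209 and 0.175).

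Psmd1 and Psmd2 encode the large scaffold subunits of the base, which bind ubiquitin receptors and shuttle factors. Psmd1 had 11.40, 11.43 and 10.71 in iCM-Ex hearts, 10.83, 10.67 and 11.20 in iCM hearts and 11.98, 12.39 and 12.24 in saline hearts, so that all treated arrays lay below all saline arrays. It fell by 1.31 ± 0.30 (SE) in iCM hearts, 2.47-fold (limma adjusted p = 0.0413), a call kept without iCM-Ex replicate 3 and lost without each of the 8 other arrays (limma adjusted p from 0.0523 to 0.137). Its difference in iCM-Ex hearts was −1.02 ± 0.30 (limma adjusted p = 0.15). Psmd2 showed the same order, with differences of −0.77 in iCM-Ex and −1.20 in iCM hearts (limma adjusted p = 0.329 and 0.0833) and no overlap with saline in either. Psmd4, the ubiquitin receptor of the base, differed by 0.44 and 1.02, with iCM replicate 3 at 11.71 and the 8 other arrays between 9.18 and 9.98.

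Psmd7 encodes a lid subunit that pairs with the deubiquitinase Psmd14 and lacks catalytic activity itself, and it was the member that differed most from saline in either treated group. Its signals were 11.94, 12.64 and 12.17 in iCM-Ex hearts, 11.80, 10.39 and 11.91 in iCM hearts and 15.80, 15.30 and 14.57 in saline hearts. All 6 treated arrays lay below all 3 saline arrays. In iCM-Ex hearts Psmd7 fell by 2.97 ± 0.46 (SE), 7.86-fold (limma adjusted p = 0.0374), and in iCM hearts by 3.86 ± 0.46, 14.5-fold (limma adjusted p = 0.00439). The treated groups differed by 0.88 from each other (limma adjusted p = 0.431). The iCM fall passed the threshold without each of the 9 arrays in turn, with its highest limma adjusted p at 0.0323 without saline replicate 2. The iCM-Ex fall passed without iCM replicate 2 or saline replicate 3, and was lost without each of the 7 other arrays (limma adjusted p from 0.0506 to 0.202). Both contrasts use the same saline arrays.

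The other lid genes differed less from saline than Psmd7. In iCM-Ex hearts the differences of the 7 other lid genes from saline ran from −0.42 to 0.67, and in iCM hearts from −1.08 to 1.32. Psmd14, its partner, had 8.19, 8.88 and 8.89 in iCM-Ex hearts, 7.54, 7.80 and 6.85 in iCM hearts and 7.96, 7.67 and 8.31 in saline hearts, with iCM-Ex above iCM by 1.26 (adjusted p = 0.113). Psmd8 likewise lay above iCM on every iCM-Ex array, by 1.2 (adjusted p = 0.0657). Psmd11, a scaffold of the lid, was the lid gene highest over saline in iCM hearts, at 1.32 (adjusted p = 0.114), and Psmd12, another scaffold, the next lowest after Psmd7, at −1.08 (adjusted p = 0.096).

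**Figure D5:**
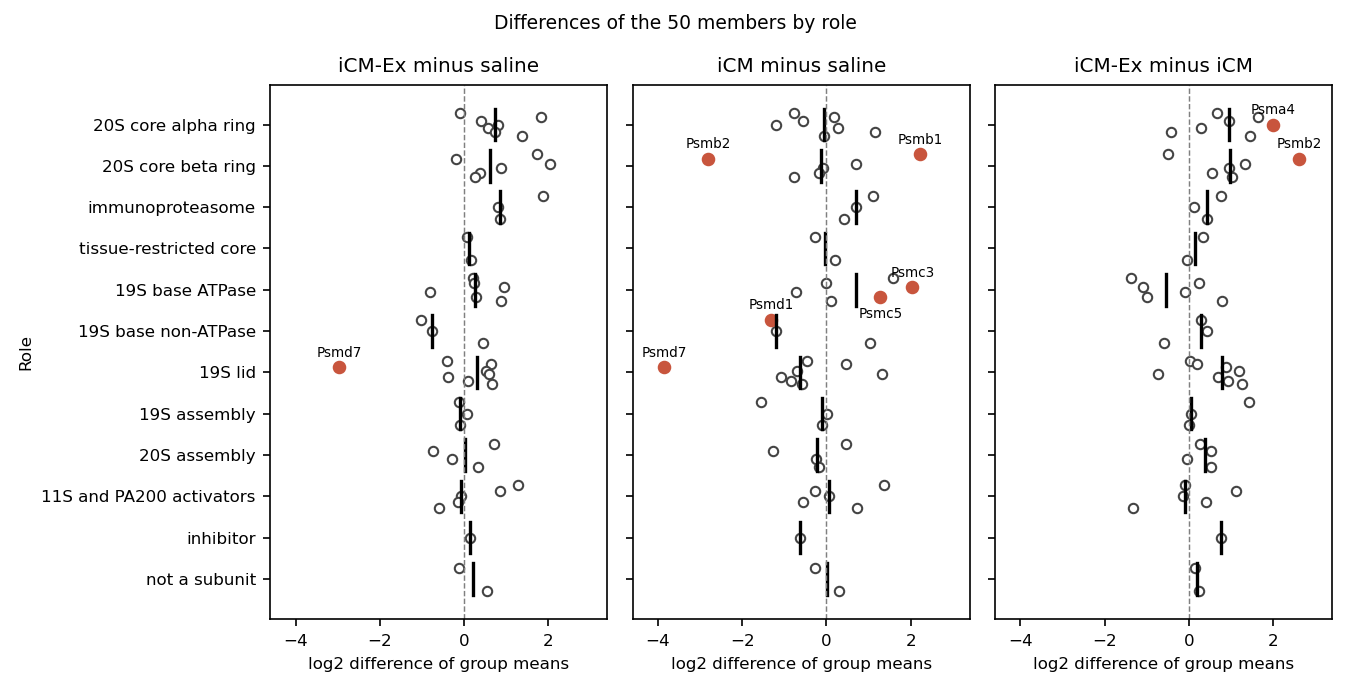
Log2 difference of group means of each of the 50 members by role, for iCM-Ex minus saline (left), iCM minus saline (middle) and iCM-Ex minus iCM (right); filled, named points passed limma's adjusted threshold, vertical bars are the medians of each role, and points are spread up and down only for legibility. The alpha and beta ring medians are 0.72 and 0.62 for iCM-Ex and −0.06 and −0.14 for iCM over saline, and Psmd7 is the lowest point in both, at −2.97 and −3.86.

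None of the assembly factor genes was called. The 4 genes Psmg1 to Psmg4, whose products assemble the core's alpha ring, had medians of 0.02 in iCM-Ex and −0.22 in iCM hearts over saline, and the 3 chaperones of the base, Psmd5, Psmd9 and Psmd10, had medians of −0.11 and −0.10. Psmd5 had 5.85, 8.02 and 7.04 in iCM-Ex hearts, 5.64, 5.27 and 5.73 in iCM hearts and 6.42, 7.47 and 7.39 in saline hearts. The iCM arrays lay below both other groups, by 1.55 below saline (limma adjusted p = 0.117). Their median negative controls were 5.11, 5.56 and 5.25. Psmd5 was thus near background on the iCM arrays, and the size of this difference is uncertain. In all, 3 members were below the median negative control probe set in all groups: Psmg3, Psma8 and Psmb11. Psmg3 lay between 3.30 and 3.91 on all arrays. Psma8 and Psmb11 are core subunits known from testis and thymus, and for these 3 genes the arrays give no difference that can be read. Psmc3ip, a meiotic recombination factor, and Psme3ip1, a partner of Psme3, differed from saline by −0.12 and 0.54 in iCM-Ex and −0.28 and 0.30 in iCM hearts, and neither was called.

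Replicates of a group differed for proteasome genes about as much as for other genes. The median SD within groups was 0.49 for the 50 members, 0.45 for all genes and 0.56 for all genes above the median mean signal. Among the members Psmb10, Psme4 and Psmb9 varied most, at 1.07, 1.03 and 0.99. After group means were taken out, the median correlation between pairs of members over the 9 arrays was 0.17, with quartiles of −0.15 and 0.47 over 1225 pairs, which share the same arrays.

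The wider ubiquitin and proteasome system was covered by 5 lists of 54 genes, of which 43 were measured. Of 18 proteasome partners, 11 were higher in iCM-Ex than in saline hearts (median 0.14) and 9 in iCM than in saline hearts (median 0.02). Zfand2a, which encodes a stress-induced zinc finger protein that binds the proteasome, was the gene of the 5 lists that passed the test. Its signals were 10.28, 10.81 and 10.50 in iCM-Ex hearts, 8.25, 7.61 and 7.23 in iCM hearts and 11.67, 11.55 and 11.94 in saline hearts, with no overlap between any groups. It fell by 4.02 ± 0.32 (SE) in iCM against saline hearts, 16.3-fold (limma adjusted p = 0.00253), and was 2.83 ± 0.32 higher in iCM-Ex than in iCM hearts, 7.11-fold (limma adjusted p = 0.0125). The difference of iCM-Ex from saline was −1.19 (adjusted p = 0.123). The fall in iCM hearts passed without each array in turn (highest limma adjusted p 0.0175), and the difference between treated groups was lost without iCM-Ex replicate 2 (adjusted p = 0.0843) or 3 (adjusted p = 0.085). Without the 3 arrays with markers of other tissues, which leaves 1 iCM array, both calls were lost. With control separation as a covariate the fall was kept and the difference between treated groups lost. Over all settings the fall ran from −4.49 to −3.79 and that difference from 2.44 to 3.31.

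Pomp, the chaperone that completes the core, had 11.39, 11.98 and 11.11 in iCM-Ex hearts, 11.59, 11.14 and 12.11 in iCM hearts and 10.04, 10.56 and 11.03 in saline hearts. All treated arrays were above all saline arrays, by 0.95 in iCM-Ex and 1.07 in iCM hearts (limma adjusted p = 0.264 and 0.138). Sem1, the smallest lid subunit, which lies outside the symbol rule, had 14.59, 13.95 and 13.57 in iCM-Ex hearts, 13.08, 13.01 and 14.01 in iCM hearts and 12.88, 12.48 and 12.80 in saline hearts. It too lay above saline on every treated array, by 1.31 and 0.65 (limma adjusted p = 0.135 and 0.347).

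Of 7 measured regulators of proteasome genes, 1 was higher in iCM-Ex and 2 in iCM than in saline hearts, and none was called. Nfe2l1, the transcription factor that raises proteasome gene expression when the proteasome is inhibited, had 14.40, 13.99 and 13.61 in iCM-Ex hearts, 15.85, 14.80 and 16.38 in iCM hearts and 14.95, 15.42 and 13.90 in saline hearts. It lay below iCM on every iCM-Ex array, by 1.68 on average (difference −1.68, adjusted p = 0.134), and overlapped with saline in both treated groups. Of 10 measured genes of peptide loading and class I presentation, 6 were higher in iCM-Ex hearts (median 0.10) and 8 in iCM hearts (median 0.79) than in saline, and none was called. Tap1, which carries peptides cut by the proteasome into the endoplasmic reticulum and lies beside Psmb9 in the genome, had 8.02, 8.54 and 7.62 in iCM-Ex hearts, 11.21, 8.54 and 9.45 in iCM hearts and 8.88, 8.26 and 8.63 in saline hearts. Its highest array was iCM replicate 1, as for Psmb9 and Psmb10, and its differences from saline were −0.53 in iCM-Ex and 1.14 in iCM hearts (limma adjusted p = 0.72 and 0.298). Of the ubiquitin genes and their activating enzymes, Uba6 was measured, with differences of −0.62 and −0.85.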

How the data were processed

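Total RNA from peri-infarct heart tissue was measured on Clariom S arrays, with 5.5 µg of cDNA labelled per array, per the labels' protocols. The authors deposited log2 signals, for which the submitters' processing notes name Affymetrix Expression Console. Its version, background correction and normalisation are not stated there. That the deposited values are log2 was judged from their range, which ran from 2.25 to 19.93. Of 28846 rows, 6640 were controls, and 19572 of the 22206 others had 1 gene symbol in the platform annotation and 2634 none. The row with the highest mean was kept for the 55 genes with several rows, which left 19505 genes, and no further normalisation or filter was applied.

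All 9 arrays were fitted in limma 3.58.1 (R 4.3.3) with lmFit and eBayes, with 3 groups and no covariate, and p-values were adjusted over all genes within each contrast by the Benjamini-Hochberg method at a threshold of 0.05. Prior and residual degrees of freedom were 4.23 and 6, and the code was tested on simulated data. The number of arrays limits the precision. The members and lists were chosen with earlier results of these data known. Values on every array are given for members called in any test, the immunoproteasome genes with their constitutive partners, Psme1, Psme2, the 3 largest and lowest differences per contrast and the members of highest and lowest mean, and outside the members for genes called and for Pomp, Sem1, Nfe2l1 and Tap1. Other genes were named after their values were seen. Alternatives were other scalings, filters, weights and priors, a replicate block, a quality covariate and leaving out arrays.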

Additional observations from a re-analysis of the deposited data

How the results depend on the processing

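The counts of members called depended on the settings, and the cause was not tested. In the order iCM-Ex against saline, iCM against saline, iCM-Ex against iCM and the F test, 1, 6, 2 and 6 members were called. Quantile normalisation gave 2, 7, 3 and 10 and array weights 8, 12, 4 and 15, where all genes called by the F test rose to 10.8% with weights. The intensity trend gave 0, 4, 0 and 3, leaving out the 3 arrays with markers of other tissues 0, 0, 0 and 0, and the control separation covariate 0, 0, 0 and 1 (Psmd7). Fitting only the arrays of the compared groups gave 0, 4 and 0. Leaving out 1 array gave 0 to 2, 1 to 7, 0 to 3 and 0 to 7, and without saline replicate 2 only Psmd7 was called in iCM against saline, where 0.646% of all genes were. Median centring gave 1, 6, 2 and 8. A filter on low signals and the use of all rows changed the first 3 counts in no case. Same-numbered arrays correlated from −0.257 to 0.068 in their deviations from group means, and the labels name no shared litter or batch. No pairing by number is thus shown, though these values cannot exclude it. With the replicate block the counts were 0, 4, 0 and 3. The shares of all genes called in the 3 contrasts moved too. They were 0.349%, 3.67% and 1.07% in the main fit and 6.09%, 7.69% and 2.87% with array weights. Quantile normalisation gave 0.446%, 4.41% and 1.53%, and the intensity trend 0.0615%, 3.04% and 0.605%. The covariate gave 0.0256%, 0.169% and 0%, and fitting only the compared groups 0.00513%, 1.43% and 0.0666%.

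The median of the members for iCM-Ex over iCM was 0.38, −0.052 with the covariate and 0.27 to 0.46 without 1 array. Without the 3 arrays with markers of other tissues it was 0.06. For iCM-Ex over saline it was 0.31, 0.24 to 0.40 without 1 array and 0.18 with the covariate. For iCM over saline it was −0.10, −0.22 to 0.09 without 1 array, 0.05 with quantile normalisation, 0.17 with the covariate and 0.14 without the 3 arrays. Of 684 comparisons of single-gene results with their alternatives, 579 kept direction and side of the threshold, 76 lost and 13 gained the threshold, and 16 changed direction. With the covariate, the differences that turned were iCM-Ex minus saline of Psmb9 (−0.28) and Psmb10 (−0.18), iCM minus saline of Psme2 (0.76), and iCM-Ex minus iCM of Psmb8 (−0.59), Psmb9 (−2.61), Psmb10 (−2.14) and Psme2 (−0.59). Leaving out 1 array at a time gave iCM minus saline differences of Psmb10 from −0.42 (without iCM replicate 1) to 1.25 and of Psme2 from −0.73 to 0.28 (without iCM replicate 2). It gave iCM-Ex minus iCM differences from −0.75 to 0.63 for Psmb9 and from −0.40 to 1.27 for Psmb10, both lowest without iCM replicate 2, and from −0.34 to 0.31 for Psme1. The iCM-Ex minus iCM difference of Psmb9 was −0.48 without the 3 arrays and −0.20 without iCM-Ex replicate 2, and that of Psme1 was 0.023 with array weights, 0.31 without iCM-Ex replicate 1 and 0.08 without iCM replicate 3.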

Other observations

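Ubiquitin ligases of striated muscle, which tag contractile and other proteins for the proteasome, were measured for 7 of 8 listed genes. Of these, 2 were higher in iCM-Ex than in saline hearts (median −0.76) and 3 in iCM than in saline hearts (median −0.18), and none was called. Mdm2, the ligase of the tumour suppressor p53, had log2 signals of 10.23, 10.43 and 10.07 in iCM-Ex hearts, 9.76, 10.43 and 10.18 in iCM hearts and 12.01, 11.37 and 10.97 in saline hearts. All treated arrays lay below all saline arrays, with differences of −1.21 in iCM-Ex and −1.32 in iCM hearts (limma adjusted p = 0.128 and 0.0542). Trim63 and Fbxo32, the ligases known from muscle atrophy, were highest on iCM replicate 3, at 12.38 and 12.45, and their groups overlapped with saline, with differences of 0.54 and −0.62 in iCM-Ex hearts and 1.23 and 0.78 in iCM hearts. Vcp, the ATPase that extracts ubiquitin-tagged proteins for the proteasome, also lay below saline on every treated array, by 1.34 and 1.61 (differences −1.34 in iCM-Ex and −1.61 in iCM hearts, limma adjusted p = 0.173 and 0.0615). These genes were chosen for description after their values were seen.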
